A study of Mus musculus with 169 samples.

Results

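The 10 genes described here lie at loci that human genetics has tied to the risk of Alzheimer disease and that microglia, the resident macrophages of the brain, express: Inpp5d, Plcg2, Abi3, Cd33, Ms4a6d, Bin1, Picalm, Rin3, Sorl1 and Abca7. They were taken from a given list of gene names, and every microarray probe whose transcript accession matched one of them was used. All 10 were found among the 20145 named genes of the array, each with a single probe. Microglia had been sorted from mice with progranulin (Grn+/+, WT) and from mice without it (Grn-/-, KO), all on the C57B/6J background, at 4 and at 16 months of age. Per the labels' protocols, brain cells were separated on Percoll gradients and sorted with antibodies to CD11b, CD45 and Ly6G. The younger age was measured on 4 WT and 3 KO arrays and the older age on 4 arrays of each genotype, after the submitters left out 1 array. The sex of the mice, and whether an array held 1 mouse or a pool, are not given in the sources used here, so the p-values measure only the spread between these arrays.

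Levels are given as log2 of the probe's signal over the 75th percentile of all signals of its array, so 0 is a probe at that percentile. A probe's brightness depends on its own sequence, and levels are therefore compared between arrays for 1 gene and never between genes. WT arrays 1 and 2 at 16 months, and likewise 3 and 4, matched as closely as repeat spots of 1 probe do within an array, with a scaled median absolute log2 difference of 0.0943 to 0.123, against 0.383 to 1.28 in other pairs within a group. Each of these pairs was counted as 1 sample, which left 13 replicates, with n = 4 (WT) and n = 3 (KO) in the younger mice and n = 2 (WT) and n = 4 (KO) in the older ones. Differences are KO minus WT on the log2 scale with a standard error (SE), from 1 limma fit over 31932 features. A gene is said to have risen or fallen where its p-value, adjusted by the method of Benjamini and Hochberg over all features tested, was under 0.05.

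Progranulin is a secreted glycoprotein of the lysosome, and its partial loss in people causes frontotemporal dementia, its complete loss a lysosomal storage disease. Many Alzheimer risk genes act in microglia along a few linked routes. Surface receptors such as Trem2 signal through the adaptor Tyrobp and the kinase Syk to Plcg2, a phospholipase that cleaves a membrane lipid to raise calcium, and Inpp5d (SHIP1), a lipid phosphatase, damps the same signal by consuming the product of PI3 kinase. Abi3 belongs to the complex that drives actin branching, Cd33 is a lectin that binds sialic acids and Ms4a6d is a membrane protein of macrophages. Bin1 bends membranes, Picalm recruits clathrin, Rin3 activates Rab5 on early endosomes, Sorl1 is a sorting receptor that carries the amyloid precursor protein between endosome and Golgi, and Abca7 is a lipid transporter.

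PU.1, the product of the risk gene Spi1, is the factor that defines the myeloid lineage, and it binds a purine-rich sequence with the core GAGGAA. The 250 bases before the transcription start were searched on both strands for GAGGAA and for the longer GAGGAAGT, which contains it, in the RefSeq promoter table of build GRCm38.p6. Entries of 7 members, with 9 start sites, were used from that table. No entry of Abi3, Bin1 or Ms4a6d was used, so their windows were not searched and the counts below leave them out. GAGGAA was found in 3 of the 9 windows, against 23.3% of all 32851 windows, and GAGGAAGT in 1, against 2.44%. The windows of the 3 matching genes, and that of Plcg2, which has no match, are shown because these 4 genes were lower in KO microglia at 16 months. Capitals mark the match, and each sequence runs 5′ to 3′ towards the start site.
Inpp5d (chr1:87620062-87620311, plus strand): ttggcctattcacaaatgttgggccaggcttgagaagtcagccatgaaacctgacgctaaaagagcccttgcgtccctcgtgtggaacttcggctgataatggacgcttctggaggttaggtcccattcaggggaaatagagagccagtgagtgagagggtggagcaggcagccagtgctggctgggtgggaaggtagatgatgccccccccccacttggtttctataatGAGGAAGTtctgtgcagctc
Cd33 (chr7:43533172-43533421, minus strand): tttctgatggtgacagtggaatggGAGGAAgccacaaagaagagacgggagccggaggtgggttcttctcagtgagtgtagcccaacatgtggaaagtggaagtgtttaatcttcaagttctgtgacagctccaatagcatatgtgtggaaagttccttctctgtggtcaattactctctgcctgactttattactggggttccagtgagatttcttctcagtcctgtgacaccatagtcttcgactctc
Picalm (chr7:90129963-90130212, plus strand): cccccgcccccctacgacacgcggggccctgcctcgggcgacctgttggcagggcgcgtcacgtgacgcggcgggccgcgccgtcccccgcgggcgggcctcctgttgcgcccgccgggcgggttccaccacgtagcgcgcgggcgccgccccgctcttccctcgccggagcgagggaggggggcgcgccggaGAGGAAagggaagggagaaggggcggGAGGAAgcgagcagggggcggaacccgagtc
Plcg2 (chr8:117498025-117498274, plus strand): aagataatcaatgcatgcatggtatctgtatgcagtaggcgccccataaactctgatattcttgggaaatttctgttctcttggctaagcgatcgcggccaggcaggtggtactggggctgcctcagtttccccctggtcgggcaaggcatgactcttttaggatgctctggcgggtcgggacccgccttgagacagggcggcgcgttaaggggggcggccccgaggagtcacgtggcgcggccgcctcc
The match of Inpp5d begins 20 bases before the start site, that of Cd33 226 bases before it, and those of Picalm 57 and 31 bases before it. Rin3 and Sorl1, with 2 start sites each, and Abca7 have no match in their windows. A match is a description of the sequence and was not tested for binding.

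Grn itself followed the genotype labels. On the 4-month arrays its level was 6.13 to 6.32 in WT and -3.36 to -2.06 in KO, a difference of -9.03 (SE 0.28, adjusted p = 2.93e-07). At 16 months it was 4.61 to 5.51 in WT and not well above background on any KO array, where it was at least 1340-fold lower (adjusted p = 3.81e-07). Signal and cell type markers differed between the groups at 16 months. In WT the 75th percentile of signal ranged from 1010 to 1511, in KO from 507 to 1037, and 64.5 to 69.7% of spots on WT and 54.2 to 62.7% on KO arrays were well above background. Of 15 microglia markers, all detected in every group, 12 fell and 0 rose in KO at 16 months (median -2.77), and none was called at 4 months. Their mean level was 6.98 to 7.26 (WT) and 6.89 to 7.38 (KO) at 4 months. At 16 months it was 6.05, 6.03, 7.05 and 7.22 on WT arrays 1 to 4 and 2.70, 3.21, 4.69 and 5.21 on KO arrays 1 to 4. Of 12 choroid plexus markers, 6 rose and 0 fell at 16 months. Their summed signal, in multiples of the 75th percentile, was 445 to 907 in WT and 1340 to 2570 in KO, whereas that of the microglia markers was 1280 to 2570 in WT and 287 to 842 in KO. Over 10 lists of other cell types, the choroid plexus list among them, 17 of 77 markers rose and 10 fell. Of all features, 19.3% were called higher and 15.0% lower in KO at 16 months. In sorted bulk RNA, fewer microglia in a sample and less RNA per microglial cell cannot be told apart. Sample titles carry a number that differs between the ages and another that differs between the genotypes. The labels do not say what these numbers stand for. If they are slide and row, age cannot be told apart from slide, nor genotype from position.

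At 16 months 6 of the 10 risk genes fell in KO microglia and 0 rose. Abi3, Inpp5d, Cd33 and Plcg2, which act in receptor signaling, at the cell surface or on actin, differed by 9.9-fold to 25.3-fold. Bin1 and Picalm, which act in endocytosis, differed by 3.6-fold and 2.25-fold. The membrane protein gene Ms4a6d, the endosome genes Sorl1 and Rin3, and Abca7 did not pass the test. Of all 31930 features tested, 34.3% were called, 15.0% lower and 19.3% higher. The median difference was -1.64 over the members and 0.12 over all features.

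**Figure D1:**
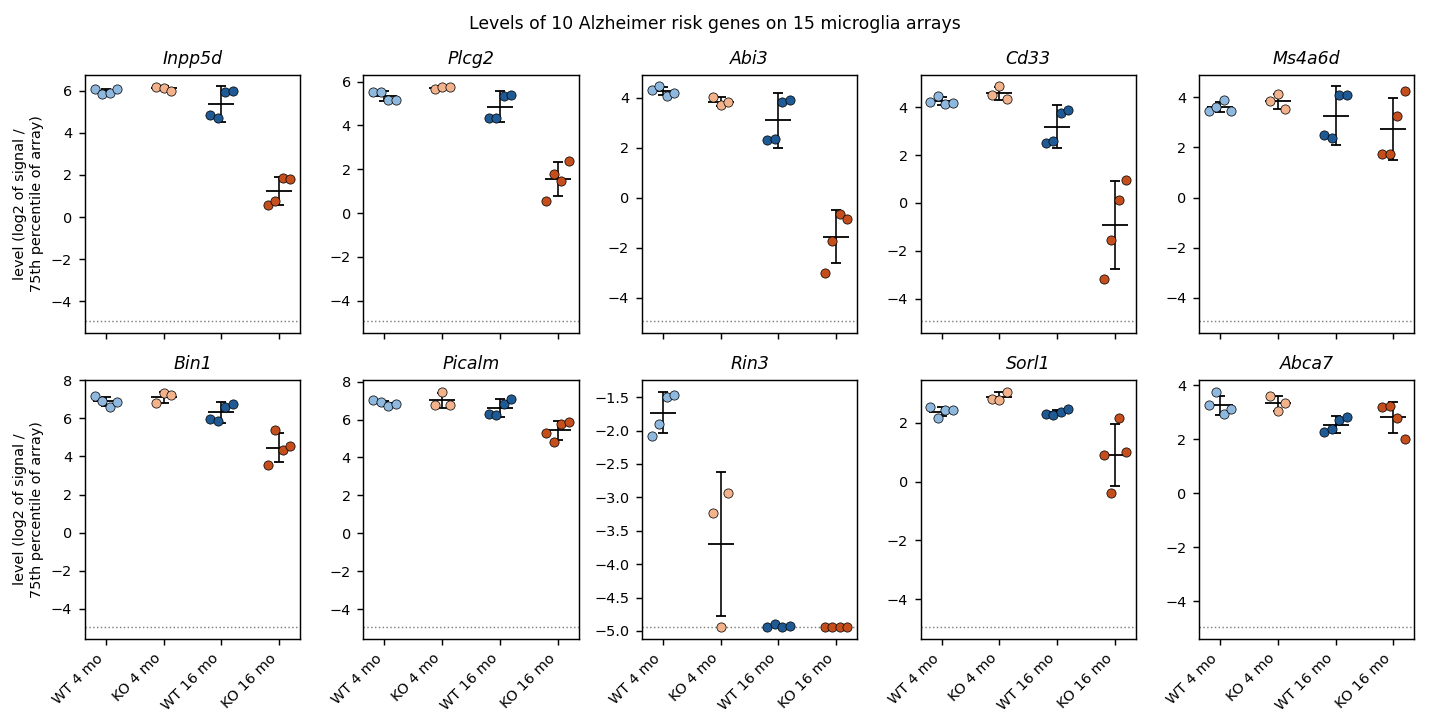
Level of each of the 10 genes (log2 of signal over the 75th percentile of the array, each panel on its own scale) on the 15 arrays, by genotype and age. Points are arrays, horizontal marks and bars are the mean and SD over replicates (the 4 WT arrays at 16 months are 2 replicates), and the dotted line is the floor of -4.94; for Abi3, Inpp5d, Cd33, Plcg2, Bin1, Picalm and Sorl1 every KO array at 16 months lies below every WT array of that age.

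Inpp5d was measured at 6.08, 5.84, 5.90 and 6.08 on the WT arrays and at 6.18, 6.13 and 6.00 on the KO arrays at 4 months. At 16 months its level was 4.82, 4.71, 5.94 and 5.96 in WT and 0.57, 0.78, 1.84 and 1.81 in KO. The groups overlapped at 4 months and were far apart at 16 months, where the lowest WT array stood above the highest KO array. The difference at 16 months was -4.11 (SE 0.41, adjusted p = 0.00013), 17.2-fold lower in KO, and at 4 months it was 0.13 (SE 0.36, adjusted p = 1).

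Plcg2 stood at 5.54, 5.53, 5.16 and 5.17 in WT and at 5.66, 5.75 and 5.78 in KO at 4 months. At 16 months it was 4.36, 4.35, 5.35 and 5.38 in WT and 0.55, 1.80, 1.46 and 2.40 in KO. The young KO arrays were all slightly above the WT arrays, and the old ones all below them. The difference was -3.31 at 16 months (SE 0.44, adjusted p = 0.00046) and 0.38 at 4 months (SE 0.38, adjusted p = 1).

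Abi3 read 4.31, 4.46, 4.09 and 4.18 in WT and 4.04, 3.70 and 3.82 in KO at 4 months. In the old mice it read 2.32, 2.34, 3.85 and 3.93 in WT and -2.99, -1.71, -0.65 and -0.84 in KO. KO arrays lay below WT arrays at both ages, by a small margin at 4 months. The difference was -4.66 at 16 months (SE 0.60, adjusted p = 0.000394) and -0.41 at 4 months (SE 0.53, adjusted p = 1).

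Cd33 was 4.23, 4.47, 4.12 and 4.18 in WT and 4.51, 4.87 and 4.34 in KO at 4 months. At 16 months it was 2.51, 2.60, 3.76 and 3.88 in WT and -3.18, -1.53, 0.11 and 0.96 in KO. The genotypes overlapped at 4 months, and the KO arrays of 16 months, though widely spread, lay below all WT arrays. The difference was -4.10 at 16 months (SE 0.90, adjusted p = 0.00594) and 0.33 at 4 months (SE 0.79, adjusted p = 1).

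Ms4a6d did not separate the genotypes. At 4 months it was 3.47, 3.61, 3.89 and 3.44 in WT and 3.84, 4.15 and 3.54 in KO, and at 16 months 2.50, 2.39, 4.10 and 4.11 in WT and 1.73, 1.73, 3.25 and 4.24 in KO. The genotypes overlapped at both ages, and within each genotype of 16 months arrays 1 and 2 were lower than 3 and 4. The difference at 16 months was -0.54 (SE 0.68, adjusted p = 0.588), and its 95% interval of -2.04 to 0.96 leaves room for a change of either sign.

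Of the endocytosis genes, Bin1 had levels of 7.19, 6.92, 6.59 and 6.87 in WT and 6.79, 7.33 and 7.20 in KO at 4 months. At 16 months they were 5.99, 5.86, 6.62 and 6.75 in WT and 3.55, 5.39, 4.36 and 4.53 in KO. The genotypes overlapped at 4 months and did not at 16 months, where the nearest WT and KO arrays were 5.86 and 5.39. The difference at 16 months was -1.85 (SE 0.43, adjusted p = 0.00769).

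Picalm had levels of 7.01, 6.91, 6.69 and 6.81 in WT and 6.79, 7.46 and 6.78 in KO at 4 months. At 16 months they were 6.30, 6.22, 6.82 and 7.09 in WT and 5.31, 4.79, 5.79 and 5.87 in KO. As for Bin1, only the old groups were separate, with a narrower gap. The difference at 16 months was -1.17 (SE 0.33, adjusted p = 0.0212).

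Rin3 was well above background on 10 of 15 arrays, whereas the other 9 probes were so on all 15. At 4 months it was -2.08, -1.90, -1.49 and -1.46 in WT and -3.23, -4.94 and -2.93 in KO, where -4.94 is the floor. At 16 months it was -4.94, -4.90, -4.94 and -4.93 in WT and at the floor on all 4 KO arrays, where it was not well above background. The young KO arrays were all below the WT arrays, and in the old mice both genotypes were at or near the floor. The difference at 4 months was -1.97 (SE 0.40, unadjusted p = 0.000505, adjusted p = 0.224). At 16 months the fitted difference was -0.01 (adjusted p = 1), a value fixed by the floor, and no size of change can be read from it. Rin3 was well above background on 4 of 4 WT and 0 of 4 KO arrays there. As a group mean against the lowest signal well above background, the bound was 1.31-fold lower in KO, and it is not firm. On KO array 3 the Rin3 signal was 26 and not well above background, though the lowest signal so flagged on that array was 16.6. That lowest signal is therefore not a sure limit for this probe.

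Sorl1 was 2.53, 2.15, 2.42 and 2.42 in WT and 2.80, 2.78 and 3.05 in KO at 4 months. At 16 months it was 2.31, 2.26, 2.35 and 2.47 in WT and 0.89, -0.39, 2.17 and 0.99 in KO. The KO arrays were all above the WT arrays at 4 months and all below them at 16 months, KO array 3 only just. The difference of -1.43 at 16 months (SE 0.51, 95% interval -2.56 to -0.30) had an adjusted p of 0.0513, and it passed the test under 8 of 24 alternatives, among them the fits without KO array 2 (adjusted p = 0.0443) and without KO array 3 (adjusted p = 0.00551).

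Abca7 was 3.27, 3.76, 2.93 and 3.14 in WT and 3.59, 3.05 and 3.34 in KO at 4 months, and 2.28, 2.39, 2.72 and 2.82 in WT and 3.20, 3.25, 2.80 and 2.02 in KO at 16 months. The genotypes overlapped at both ages. Its difference at 16 months was 0.26 (SE 0.36, adjusted p = 0.618, 95% interval -0.53 to 1.05), and its sign changed with the scaling.

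Counted without a model, every KO array lay below every WT array at 16 months for 7 of the 10 genes, the 6 that were called and Sorl1, against 16.7% of 31515 features with KO lower and 39.2% in either direction. At 4 months the groups did not overlap for 4 genes, with KO lower for Abi3 and Rin3 and higher for Plcg2 and Sorl1, against 11.6% of features in either direction and 6.64% with KO lower. The differences at 4 months ran from -1.97 (Rin3) to 0.50 (Sorl1), and no member was called there by limma, where 1 had an unadjusted p under 0.05 (Rin3) and 0.0251% of all features were called (0.00940% lower).

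**Figure D2:**
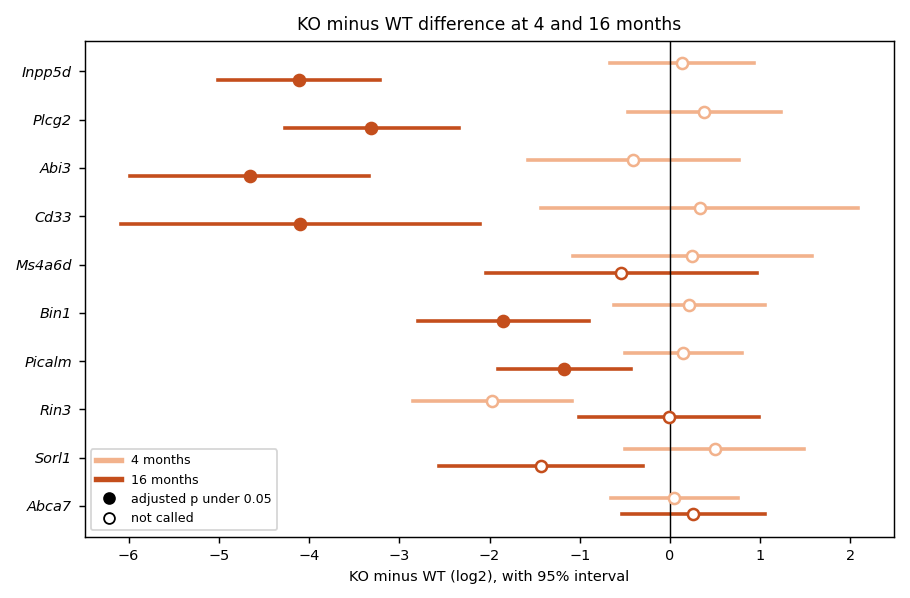
KO minus WT difference (log2) of each gene at 4 months (light) and 16 months (dark), with the 95% interval of the limma fit as a line; filled points have an adjusted p under 0.05. All filled points are at 16 months and lie between -4.66 (Abi3) and -1.17 (Picalm).

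The 6 calls did not rest equally on all samples. Without WT arrays 3 and 4 of 16 months, which leaves 1 WT replicate assumed to vary like the other groups, Bin1 (adjusted p = 0.0749), Picalm (0.176) and Cd33 (0.0581) lost the call, while Abi3, Inpp5d and Plcg2 kept it under each left-out replicate. The same 3 were lost when the 16-month arrays were fitted alone (adjusted p = 0.101 for Bin1, 0.128 for Picalm and 0.108 for Cd33), where 10.5% of features were called.

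The change of the genotype difference with age was tested as an interaction. It was called, towards lower in KO at 16 months, for Cd33 (-4.42, SE 1.20, adjusted p = 0.0358), Abi3 (-4.25, SE 0.80, adjusted p = 0.00868), Inpp5d (-4.24, SE 0.54, adjusted p = 0.00198), Plcg2 (-3.69, SE 0.58, adjusted p = 0.00441) and Bin1 (-2.06, SE 0.57, adjusted p = 0.0381). These are 5 of 10 members, against 6.51% of features called in that direction, 6.84% in the other and 13.3% in either. The calls of Bin1 and Cd33 were each lost when any of 9 of the 13 replicates was left out, namely every 4-month replicate, WT arrays 3 and 4 of 16 months and, of that age, KO array 3 for Bin1 and WT arrays 1 and 2 for Cd33, with an adjusted p of 0.0545 to 0.121 for Bin1 and 0.0509 to 0.112 for Cd33. Picalm (-1.32, adjusted p = 0.0771), Sorl1 (-1.93, adjusted p = 0.0869) and Rin3 (1.95, adjusted p = 0.0565) did not pass. Sorl1 passed without KO array 2 (0.0454) or 3 (0.0155) of 16 months. For Rin3, not well above background on any KO array of 16 months and set to the floor there, the interaction has no reliable size, and its p changed sides with the array left out: it passed without KO array 2 (0.0223) or 3 (0.0365) of 4 months.

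With age in WT microglia, Rin3 alone was called among the members. It fell by 3.19 on the log2 scale (SE 0.45, adjusted p = 0.0081), a size limited by the floor at which the 16-month levels lie. On the scale of the microglia markers the difference was -2.67 and was not called (adjusted p = 0.198). On the 75th percentile scale 3.49% of features were called in this comparison, 1.70% lower and 1.79% higher. In KO microglia 8 members were lower at 16 than at 4 months, all but Ms4a6d and Abca7, against 21.5% of features called lower and 40.8% in either direction. This comparison shares the KO arrays of 16 months with the one between genotypes. The 4-month signals had also been corrected by the scanner software for position on the slide, and the 16-month signals had not.

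The levels of some members followed the microglia markers from array to array, and those of others did not. On KO arrays 1 to 4 of 16 months, where the mean marker level was 2.70, 3.21, 4.69 and 5.21, Cd33 was -3.18, -1.53, 0.11 and 0.96, in the same order. Ms4a6d was 1.73, 1.73, 3.25 and 4.24 there, with arrays 1 and 2 again the lowest. Abca7 was 3.20, 3.25, 2.80 and 2.02, with array 4 the lowest where the markers were highest. Bin1 (3.55, 5.39, 4.36 and 4.53) and Sorl1 (0.89, -0.39, 2.17 and 0.99) were not in the order of the markers on these arrays. The part of the marker difference in the members' differences was measured only by the change of scale described next.

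**Figure D3:**
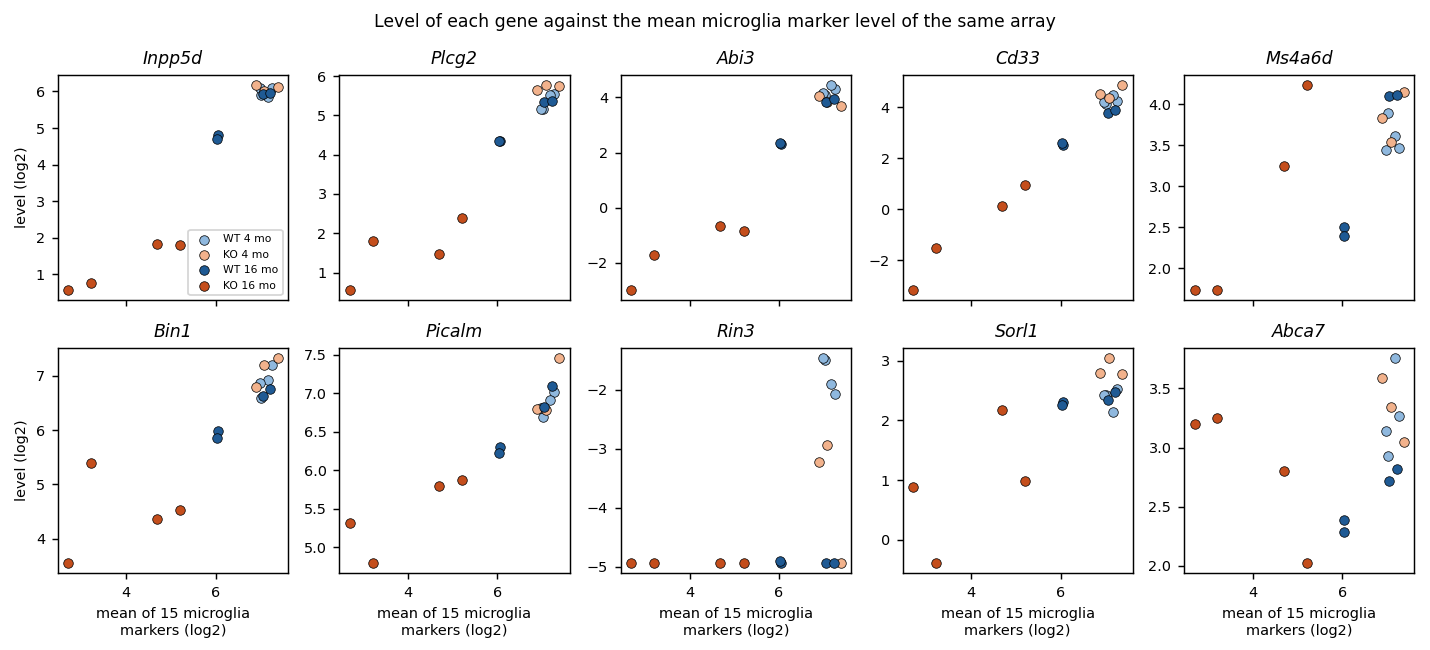
Level of each gene (log2, each panel on its own scale) against the mean log2 level of 15 microglia markers on the same array, for all 15 arrays, coloured by group. Cd33, Abi3, Inpp5d and Plcg2 are low on the 4 KO arrays of 16 months, where the marker mean is 2.70 to 5.21, and Abca7 is not low there.

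Scaled to the microglia markers in place of the 75th percentile, an alternative chosen after the data were seen, the median of all features moved to 2.76 and 73.2% of features were called, 98.3% of them higher in KO, against 56.3% higher on the main scale. On this scale Abi3 was still lower in KO at 16 months (-2.02, SE 0.77, adjusted p = 0.0206). Inpp5d (-1.47, SE 0.77, adjusted p = 0.0853), Cd33 (-1.46, SE 0.78, adjusted p = 0.0903) and Plcg2 (-0.67, SE 0.79, adjusted p = 0.44) were below 0 and did not pass the test. Bin1 (0.79), Picalm (1.47) and Sorl1 (1.21) turned to above 0 and did not pass either. Ms4a6d (2.10, adjusted p = 0.016), Abca7 (2.90, adjusted p = 0.00612) and Rin3 (2.62, adjusted p = 0.00979) were called higher, Rin3 with both genotypes at or near the floor. The value of Rin3 is set by the floor and the shift of scale, as its probe was detected on WT and not on KO arrays of 16 months. Relative to the median of all features, each member's distance is almost the same on both scales, since the change of scale moves all features of an array together.

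**Figure D4:**
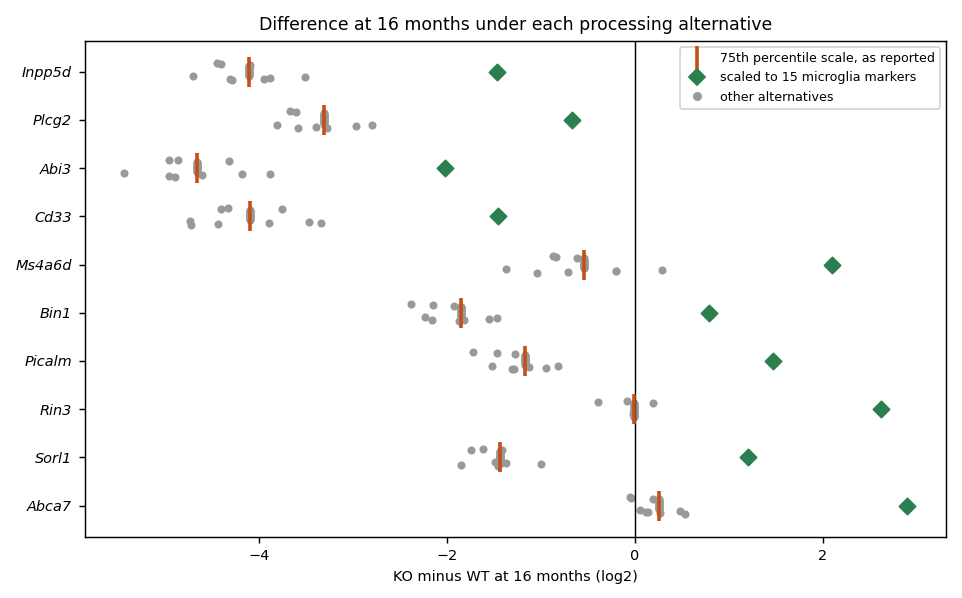
KO minus WT difference at 16 months (log2) of each gene as reported (orange bar), under the other processing alternatives (grey points) and scaled to the microglia markers (green diamond). With 1 replicate left out, the grey points run from -1.37 to 0.29 for Ms4a6d and from -5.44 to -3.88 for Abi3. On the marker scale Abi3 is -2.02, Plcg2 is -0.67 and Abca7 is 2.90.

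The members were set beside lists of genes that act with them, whose counts stand against 19.3% of all features higher and 15.0% lower in KO at 16 months, with a median of 0.12. Among 22 receptor signaling partners of Plcg2 and Inpp5d, 12 fell and 1 rose in KO at 16 months (median -2.43). Lcp2 (SLP-76), the scaffold that holds phospholipase C gamma, fell by 5.35 (SE 0.56, adjusted p = 0.000164), with 2 of 4 KO arrays not well above background. Pik3cd, the catalytic subunit of a leukocyte PI3 kinase, fell by 5.14 (SE 0.90, adjusted p = 0.00189), and the adaptor Lat2 fell by 4.09 (SE 0.89, adjusted p = 0.00578). Syk, the kinase upstream of Plcg2, fell by 5.05 (SE 1.10, adjusted p = 0.00583), from 2.47 to 4.04 on the WT arrays to -4.94 to 0.04 on the KO arrays. Of the receptor pair itself, Trem2 fell by 2.53 (SE 0.57, adjusted p = 0.00668), and Tyrobp had a difference of -1.20 that did not pass (SE 0.78, adjusted p = 0.266, 95% interval -2.93 to 0.53). No gene of this list was called at 4 months.

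Of 7 actin regulators that act with Abi3, 4 fell and 1 rose at 16 months. Nckap1l, the blood-cell subunit of the same complex, fell by 3.33 (SE 0.44, adjusted p = 0.000487), and its partner Cyfip1 fell by 2.05 (adjusted p = 0.0122). The kinase Abl1 fell by 2.66 (adjusted p = 0.000318), and the small GTPase Rac2 fell by 1.84 (adjusted p = 0.00031). The 1 that rose was Brk1, a small subunit of the complex, by 1.58 (adjusted p = 0.00508), named after its value was seen.

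Endocytosis and sorting partners of Bin1, Picalm, Rin3 and Sorl1 moved both ways, with 7 higher and 7 lower of 28 and a median of 0.48. The clathrin adaptor Epn1 fell by 2.73 (adjusted p = 0.00127) and the Rab5 isoform Rab5b fell by 2.20 (adjusted p = 0.00241). The Golgi adaptors Gga2 and Gga3 went in opposite directions, by 2.74 (adjusted p = 0.000101) and -2.71 (adjusted p = 0.000393). Of the closest relatives of the members, 4 were higher and 5 lower of 22 (median -0.40), shares near those of all features. Sort1, a relative of Sorl1 and a receptor for progranulin, fell by 1.86 (adjusted p = 0.00187). Abi2 rose by 2.01 (adjusted p = 0.00274), Snap91, the neuronal relative of Picalm, by 3.13 (adjusted p = 0.0345) and Abca4, a relative of Abca7, by 4.24 (adjusted p = 0.000722). Abca4 and Snap91 rose with the choroid plexus markers in the same samples, and the part of choroid plexus RNA in their rise was not tested.

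Of 42 other Alzheimer risk genes, 10 rose and 10 fell at 16 months (median -0.43). The scaffold Cass4 fell by 6.32 (SE 0.64, adjusted p = 0.000149), the receptor Treml2 fell by 3.85 (SE 0.69, adjusted p = 0.00222) with 2 of 4 KO arrays not well above background, and the tetraspanin Tspan14 fell by 3.70 (SE 0.38, adjusted p = 0.00015). Slc24a4, a cation exchanger, rose by 3.64 (SE 0.35, adjusted p = 0.000119). Spi1 fell by 2.51 (SE 0.75, adjusted p = 0.0252), with 1 of 4 KO arrays well above background. Apoe, the lipid carrier with the strongest common risk allele, rose at both ages, by 1.82 at 4 months (SE 0.22, adjusted p = 0.0356) and by 1.58 at 16 months (SE 0.25, adjusted p = 0.00102). Choroid plexus markers were higher with it at 4 months too, though 0 of 12 were called, with a median difference of 3.05 and a summed signal of 14.5 to 155 in WT and 251 to 376 in KO. Their part in the rise of Apoe was not tested. The call of Apoe at 4 months depended on the fit. At that age 0 features were called higher with the replicate block, so Apoe was not called there. The same held without WT array 1 or 2 of 4 months, and without KO array 1 or 3 of 16 months. With the filter on all 15 arrays, which Apoe passes, 0 features were called at 4 months. Fitted on the 16-month arrays alone, 5 other risk genes, 10 of the 57 partner genes together (32 in the fit of all groups) and 3 relatives were called. Without WT arrays 3 and 4 of 16 months, 11 other risk genes were called.

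On the scale of the microglia markers, which moves all genes of an array alike, 73.2% of all features were called and 98.3% of those were higher in KO, so the list counts there move with the scale. Of the receptor signaling partners 6 were higher and 3 lower (median 0.19), of the actin regulators 2 were higher and 0 lower, of the endocytosis and sorting partners 21 and 0, of the relatives 13 and 0, and of the other risk genes 24 and 1. Among the named genes Lcp2 (-2.72, adjusted p = 0.00402), Pik3cd (-2.50, adjusted p = 0.0137), Syk (-2.41, adjusted p = 0.0223) and Cass4 (-3.68, adjusted p = 0.00242) were still lower in KO on that scale, as Abi3 was. Lat2 (-1.45), Treml2 (-1.21), Tspan14 (-1.06), Nckap1l (-0.69), Epn1 (-0.09), Gga3 (-0.08) and Abl1 (-0.02) were below 0 and lost their calls. Spi1 (0.13, adjusted p = 0.9), Sort1 (0.78), Cyfip1 (0.58), Rac2 (0.79) and Rab5b (0.43) turned to above 0 and were not called. Trem2 (0.11, adjusted p = 0.898) did so too, but it is itself 1 of the 15 markers that set this scale. Its value near 0 there is therefore partly built in.

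**Figure D5:**
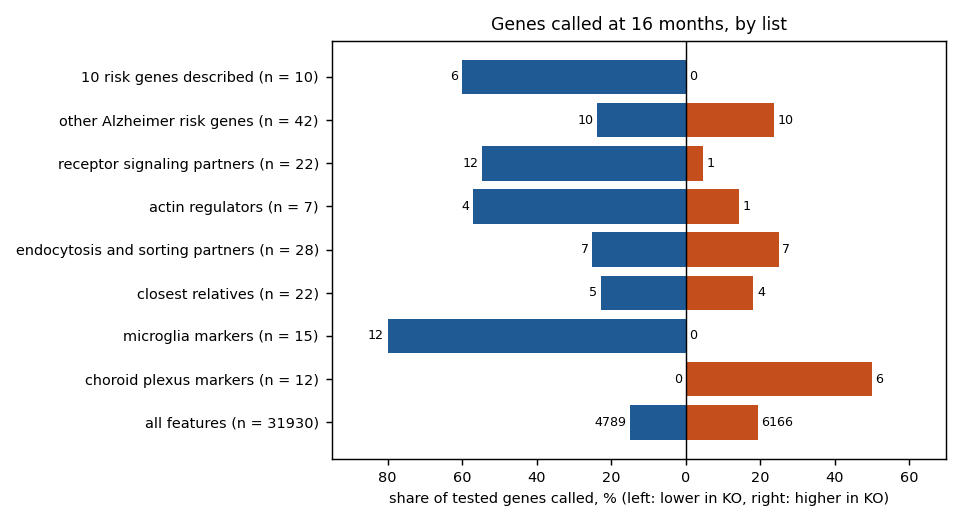
Share of tested genes called at 16 months (%), lower in KO to the left and higher to the right, for the 10 genes, lists of related genes, markers of microglia and of choroid plexus, and all 31930 features; numbers at the bars are counts of genes. The 10 genes (6 lower) and the receptor signaling partners (12 lower, 1 higher) lie to the left with the microglia markers (12 lower), and the choroid plexus markers (6 higher) to the right.

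The gene with the most similar pattern over the 13 replicates was found for each member by Pearson's r, as a description without a test, since the replicates fall into groups. It was Cyb561a3 for Inpp5d (r = 0.996), Golm1 for Plcg2 (0.995), Ly86 for Cd33 (0.995), Cd37 for Abi3 (0.994), Trafd1 for Bin1 (0.992), Bach1 for Picalm (0.986), Cd84 for Ms4a6d (0.969), Igf1r for Sorl1 (0.959), G6pd2 for Rin3 (0.943) and Krtap19-4 for Abca7 (0.885). After the group means were removed, r was lowest for Rin3 (0.797) and Abca7 (0.818) and highest for Cd33 (0.985).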

How the data were processed

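The authors deposited single-color Agilent scanner files, 15 for microglia, read with Feature Extraction (10.7.3.1, array design 028005), per the file headers. The deposited processed signal is a background-subtracted intensity, and the submitters' processing notes name R (2.15.3) as a further tool. The bead array table of brain regions was not used here. Over 59305 spots, each signal was divided by the array's 75th percentile, set to at least 0.0325 times it (-4.94 as log2) and log2-transformed. Signals of repeat spots were averaged, probes well above background on at least 3 arrays were kept (45616 of 55681), and the brightest probe of a gene was used. Accessions were named through the RefSeq gene table, which matched 26582 probes. All 10 members passed the filter.

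The 4 groups were fitted together in R 4.3.3 by limma 3.58.1, which used statmod 1.5.0, with files read by data.table (1.17.8). The test was two-sided, with Benjamini-Hochberg adjustment over all features and a threshold of 0.05. The fit was tested on simulated data. Members and gene lists were chosen with earlier results of these data known. Named beside the members are up to 4 genes of each list with the largest absolute difference among those called, plus Trem2, Apoe, Spi1, Syk and Tyrobp, and for each member its most similar gene. Brk1 was added after its value was seen. A fold of a gene below background in a whole group is a bound against the lowest signal well above background. Replicate numbers of the labels were not taken as pairing, as same-numbered arrays had correlated deviations of -0.0385 to -0.0274 at 4 months and 0.077 to 0.136 at 16 months, where 2 WT samples carry 4 numbers. Alternatives covered scaling, background correction (normexp, offset 50, on the median spot signal, the mean not being in the files used), filters, a replicate block, each age alone, each array as a sample, the probe of a gene, the variance model, each replicate left out and, chosen after the data were seen, scaling to microglia markers. The number of arrays limits the precision.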

Additional observations from a re-analysis of the deposited data

Results flagged for a closer look

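The genotype difference changed with age for 5 of the 10 genes by the limma interaction test: Cd33 (-4.42, adjusted p = 0.0358), Abi3 (-4.25, adjusted p = 0.00868), Inpp5d (-4.24, adjusted p = 0.00198), Plcg2 (-3.69, adjusted p = 0.00441) and Bin1 (-2.06, adjusted p = 0.0381), on the log2 scale. Of all features, 13.3% were called in this test, 6.51% lower and 6.84% higher. The calls of Bin1 and Cd33 were each lost when any of 9 of the 13 replicates was left out. For each of the 5, every KO array at 16 months lay below every WT array, as was so for 16.7% of features. Microglia markers fell with these 5 genes, from a mean of 6.03 to 7.22 on WT to 2.70 to 5.21 on KO arrays. Scaled to those markers, the interaction of none of these 5 was called (-1.78, -1.61, -1.59, -1.04 and 0.58). An outlier test, run gene by gene on 20 sets of 4 replicates, flagged 0. With 4 replicates it has little power, and it cannot show that the arrays of a group were alike. Pairs of KO arrays of 16 months had a scaled median absolute log2 difference of 0.565 to 1.28. KO at 4 months (n = 3) and WT at 16 months (n = 2) have too few replicates and were not part of that test.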

How the results depend on the processing

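With the 16-month arrays fitted alone, 10.5% of all features were called. Among these were 3 members (3 also over all probes), 5 other risk genes, 10 partner genes and 3 relatives. With every array as its own sample 8 members passed the interaction test (21.4% of all features), and 2 on the scale of the microglia markers (54.6% of features, 99.5% of them higher), Abca7 and Rin3, both above 0 there, opposite in sign to the 5 reported calls. In WT with age 0 members were called on that scale and with the filter on all 15 arrays, which drops Rin3. Leaving out 1 replicate at a time gave 3 to 7 members at 16 months (also over all probes), 3 to 6 in the interaction and 11 to 22 other risk genes. Where such a fit kept both WT samples of 16 months, 30.8 to 37.3% of all features were called at 16 months. In the interaction 7.61 to 17.7% were called in these fits. Abi3 was called at 16 months under 24 of 24 alternatives, and Inpp5d and Plcg2 under 23.

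Abca7 was -0.05 (16 months), -0.02 (4 months) and -0.03 (interaction) with quantile normalization, and -0.04, -0.02 and -0.02 with the percentile over probes well above background on all 15 arrays. Sorl1 in WT with age was 0.19 and 0.22 under these. Rin3 at 16 months was 0.19 with normexp. On the marker scale the differences at 16 months were 2.62 (Rin3), 0.79 (Bin1), 1.47 (Picalm), 1.21 (Sorl1) and 2.10 (Ms4a6d), the interactions 0.58 (Bin1), 1.33 (Picalm), 0.72 (Sorl1) and 1.86 (Ms4a6d), and WT with age 0.27 (Picalm), 0.03 (Plcg2), 0.49 (Sorl1) and 0.19 (Ms4a6d). With 1 replicate left out the ranges that crossed 0 were -1.37 to 0.29 (Ms4a6d, 16 months), -0.08 to 0.27 (Picalm, 4 months), -0.08 to 0.21 (Abca7, 4 months), -1.61 to 0.05 (Ms4a6d, interaction), -0.01 to 0.48 (Abca7, interaction), and for WT with age -0.60 to 0.10 (Picalm), -1.0 to 0.02 (Plcg2), -0.11 to 0.03 (Sorl1) and -1.16 to 0.50 (Ms4a6d). The cause was not tested. Of all features called at 16 months, 56.3% were higher in KO, 43.5% with the percentile over probes on all arrays and 65.0% with the filter on all 15 arrays. The median of all features moved from 0.12 to 0.44 with normexp.

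With the replicate block, 6 members were called at 16 months (26.4% of features), 0 at 4 months (0.00313%) and 4 in the interaction (6.16%), where Bin1 was lost (adjusted p = 0.142). All 4 KO arrays at 16 months, but 0 of 3 at 4 months, correlated best with their own number, where 2 WT samples carry 4 numbers. A dim probe such as Rin3 has only an uncertain bound in the old mice.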

Other observations

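With age in WT microglia, 6 of 42 other Alzheimer risk genes rose and 0 fell, while 1.79% of all features rose. Ms4a7 rose by 6.20 on the log2 scale (SE 0.99, adjusted p = 0.0115), Nck2 by 5.0 (SE 0.61, adjusted p = 0.00468), Echdc3 by 4.40 (SE 0.83, adjusted p = 0.0195) and Clu, a secreted chaperone, by 4.29 (SE 0.67, adjusted p = 0.0114), all by limma. In the same arrays 11 of 12 choroid plexus markers and 5 of 7 markers of border macrophages, among them Ms4a7 itself, rose. The part of these in the rise of the risk genes was not tested. Age cannot be told apart from slide if each age lay on a slide of its own.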
